A study of Rattus norvegicus with 44 samples.

Results

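The expression of 30 genes for voltage-gated sodium channels, voltage-gated calcium channels and the HCN pacemaker channels was followed in rat cortex after permanent occlusion of the middle cerebral artery. The genes were chosen by name alone, as every symbol of the pattern Scn with a number and a or b, every Cacn pore, alpha2delta, beta or gamma subunit and every Hcn, among the 9763 symbols of the deposited normalized table. That table held 37 probes of these genes, and each of the 30 genes had a probe that passed the filter on low signal. The spelling of the rule left out Scn2a1 and Cacna1s, which are also channel genes. Adult Sprague-Dawley rats had the right middle cerebral artery tied for 24 h or 3 d, with both common carotid arteries closed for a time during the surgery, and the infarct core, the periinfarct cortex and the contralateral cortex were sampled. Sham-operated rats went through the same surgery without occlusion and were sampled on both sides at these times, and unoperated healthy rats gave ipsilateral cortex. Each of these 11 groups was measured on 4 one-colour arrays, 44 in all, and each array held RNA pooled from 3 rats. The core, periinfarct and contralateral arrays of one pool number came from the same rats. The contralateral cortex is no untouched control in this model, since the surgery also lowers blood flow there, and the left cortex of unoperated rats was not analysed here.

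Voltage-gated sodium channels open on depolarization and carry the upstroke of the action potential. A large pore-forming subunit (Scn with a) conducts sodium, and beta subunits (Scn with b) tune its gating and anchor it to the membrane and to neighbouring cells. Calcium channels are built from a pore (Cacna1) with alpha2delta and beta subunits that bring it to the surface, and they couple firing to transmitter release and gene transcription. Several gamma subunits, above all Cacng2, Cacng3 and Cacng8, mainly escort AMPA-type glutamate receptors to the synapse. HCN channels open on hyperpolarization and set pacemaker rhythm and dendritic integration. In ischemic cortex, loss of energy depolarizes neurons, and sodium and calcium enter through these channels.

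The promoter windows that RefSeq gives for these genes on the rat assembly GRCr8 were read from 250 bases before to 50 bases after the start site, and 18 of the 30 genes matched an entry. The windows of 3 genes are shown because they belong to the gene that rose most and to a pair of genes that fell, all described below: Scn7a at chr3:71846235-71846534 on the minus strand, Cacnb3 at chr7:131666301-131666600 on the plus strand and Cacng3 at chr1:186632312-186632611 on the plus strand. All are written 5′ to 3′ in the direction of the gene. Capitals mark CG dinucleotides in Scn7a and Cacnb3, and the letters TTCAGCACC in Cacng3.
Scn7a: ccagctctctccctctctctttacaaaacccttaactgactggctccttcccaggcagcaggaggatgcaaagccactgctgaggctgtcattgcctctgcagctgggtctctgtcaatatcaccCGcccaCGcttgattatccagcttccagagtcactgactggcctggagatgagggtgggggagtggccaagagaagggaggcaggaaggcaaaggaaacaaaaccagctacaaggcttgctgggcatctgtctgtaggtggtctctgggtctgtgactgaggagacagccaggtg
Cacnb3: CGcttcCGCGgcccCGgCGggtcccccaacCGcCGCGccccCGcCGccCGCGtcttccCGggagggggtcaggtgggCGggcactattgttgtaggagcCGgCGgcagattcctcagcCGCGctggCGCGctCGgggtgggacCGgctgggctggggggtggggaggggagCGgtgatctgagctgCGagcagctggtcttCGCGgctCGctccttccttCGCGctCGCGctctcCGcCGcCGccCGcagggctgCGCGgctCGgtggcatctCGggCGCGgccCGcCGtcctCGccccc
Cacng3: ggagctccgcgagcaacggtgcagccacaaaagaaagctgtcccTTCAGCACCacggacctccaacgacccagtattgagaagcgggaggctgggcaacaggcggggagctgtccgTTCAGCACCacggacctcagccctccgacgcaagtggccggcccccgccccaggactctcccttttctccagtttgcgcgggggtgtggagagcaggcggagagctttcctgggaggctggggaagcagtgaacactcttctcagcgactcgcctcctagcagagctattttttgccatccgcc
The Scn7a window held 2 CG dinucleotides and the Cacnb3 window 44, against a median of 7 over the first listed window of all 27457 genes. Of all genes, 21.4% had as few as Scn7a or fewer. Among them was Scn2b, with 2, a gene that fell in the periinfarct cortex at 24 h. Over the 18 channel genes the median was 21.5, the range 2 to 66, and 12 genes lay above the median of all genes. The letters TTCAGCACC are the left part of the RE1 element, the site that the repressor REST binds, and were searched on both strands after the Cacng3 window had been read. They stood at 206 and 134 bases before the Cacng3 start site, in 1 of the 18 channel genes and in 0.379% of all genes. TATAAA, searched on both strands, was found in 1 channel gene, Cacng2, and in 14.3% of all genes. These matches describe the letters of the windows and nothing about what binds there.

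Between 62.5% and 77.7% of the spots of an array were well above background (median 68.8%). All 30 genes were well above background on every array, except Scn7a and Scn11a. Both arrays labelled as core and periinfarct cortex of pool 11 at 3 d stood apart from their groups. The library labelled periinfarct was most like the contralateral array of its own pool, with a correlation of 0.988 over the 30538 probes tested, and its mean correlation with the other periinfarct arrays of 3 d was 0.954. Its channel genes lay a median of -0.05 from the healthy mean on the log2 scale, against -0.62 to -0.50 on the other 3 arrays, and its microglia and macrophage markers lay 0.51 above it, against 2.61 to 2.74. The library labelled core of pool 11 lay at -0.38 for the channel genes, against -1.51 to -0.94 on the other 3. It was most like a periinfarct array of 3 d, but so was the core array of pool 12, so this trait alone does not set it apart. By mean correlation, the pool 11 library was closer to the periinfarct arrays of 3 d than to the other core arrays. The core array of pool 12 was closer to the other core arrays. The labels were kept, and counts of channel genes called at 3 d that change without pool 11 are given both ways. The lists of channel partners and cell type markers are given with pool 11 only.

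Against healthy cortex, most channel genes that changed fell, a few rose, and the core at 3 d had the most genes that fell. A gene was called when its adjusted p was below 0.05 and its change at least 2-fold, in limma, a linear model fitted to all probes at once. Each gene is counted by its brightest probe in the deposited table. The shares of all probes count single probes under the filter used here, and 20297 of these 30538 were in that table. In the core at 24 h 6 of 30 genes fell and 2 rose, where 5.24% of all probes fell and 6.05% rose. The periinfarct cortex at 24 h had 8 that fell and 3 that rose, against 7.56% and 6.78% of all probes. In the core at 3 d 16 fell and 1 rose, against 12% and 12.2%. For the periinfarct cortex at 3 d 3 fell and 1 rose, against 1.01% and 5.34%. The median log2 change over the 30 genes was -0.46 in the core and -0.57 in the periinfarct cortex at 24 h, and -1.12 and -0.48 at 3 d. Over all probes the corresponding medians were -0.08, -0.06, -0.21 and -0.10. Every array lay below every healthy array for 13 genes in the core and 12 in the periinfarct cortex at 24 h (18.9% and 21.5% of all probes), and for 19 and 11 genes at 3 d (20.7% and 11.7%). The 4 comparisons share the 4 healthy arrays. Without pool 11, 21 genes fell in the core at 3 d (16.4% of all probes) and 5 in the periinfarct cortex (2.37%). The medians of the 30 genes were then -1.32 and -0.60, and those of all probes -0.21 and -0.15. Scaled to the 75th percentile, 3209 probes rose and 1449 fell in the periinfarct cortex at 24 h, against 2069 and 2309 here. With sham cortex of the same time as the control, the genes called were 2 in the core and 7 in the periinfarct cortex at 24 h, and 14 and 1 at 3 d, against 8, 11, 17 and 4 with healthy cortex.

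**Figure D1:**
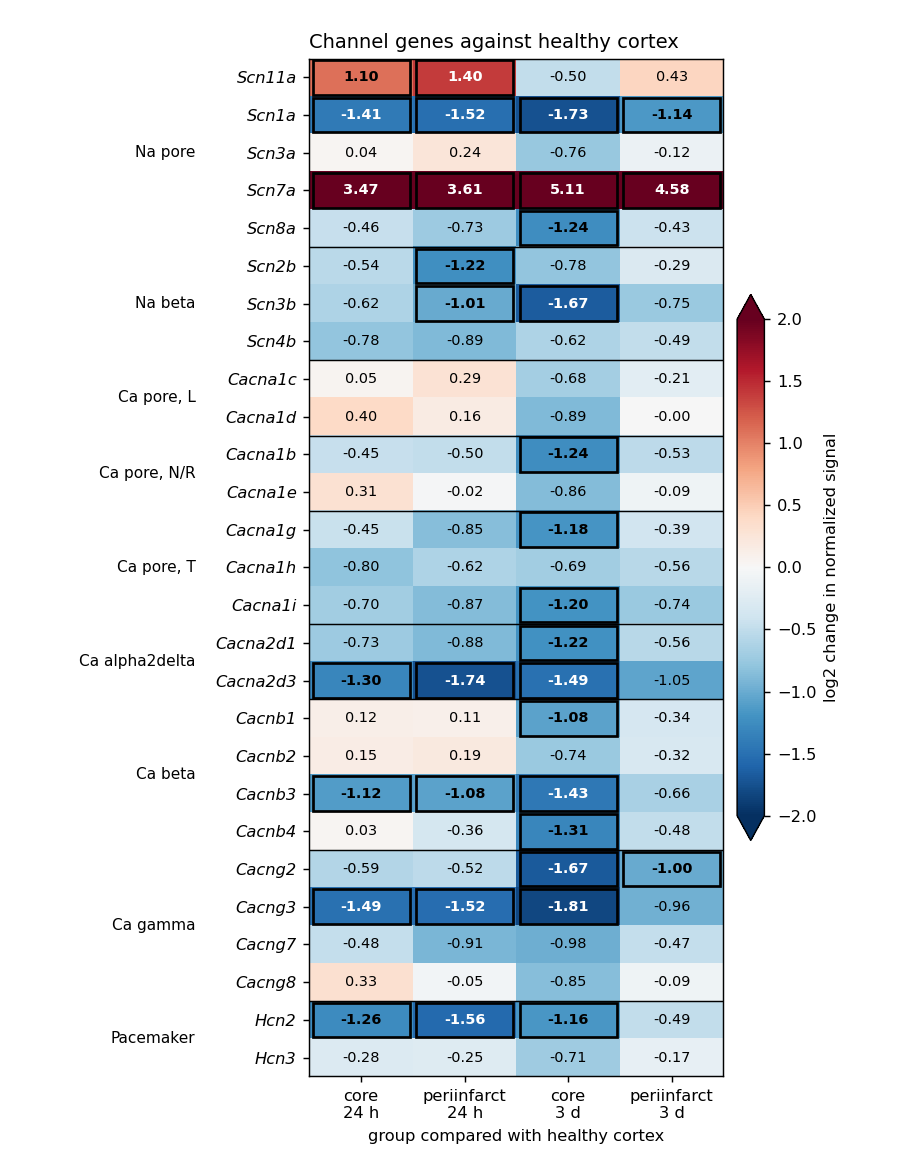
Log2 change in normalized signal of 27 channel genes (rows, grouped by subunit) in the 4 ischemic groups (columns) against healthy cortex, n = 4 arrays per group. Boxed bold values passed an adjusted p below 0.05 with at least a 2-fold change; colour is cut off at a log2 change of 2 in either direction. Scn7a is boxed upward in all 4 columns, and the core at 3 d has 14 boxed downward values.

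Scn7a, an atypical sodium channel that senses the extracellular sodium level and is best known from glia, rose in all 4 ischemic groups. Levels here and below are normalized log2 signal, listed in the order of the pools, so that pool 11 is the third value of each 3 d group. Scn7a read 0.96, 0.83, 1.27 and 1.17 on the healthy arrays, 5.63, 4.68, 3.93 and 3.89 in the core at 24 h and 5.52, 4.24, 3.56 and 5.37 in the periinfarct cortex at 24 h. At 3 d Scn7a read 7.15, 6.44, 5.59 and 5.47 in the core and 6.95, 6.72, 2.94 and 5.94 in the periinfarct cortex. No healthy array was well above background and every ischemic array was. Ischemic and healthy arrays did not overlap, and the 4 bounds given next as folds are minima. Measured against the lowest signal that counted as well above background on each healthy array, the mean level in the core was at least 9.8-fold higher at 24 h and at least 30.4-fold higher at 3 d. The bounds for the periinfarct cortex were 10.8-fold and 21.1-fold. The fitted log2 changes were 3.47 in the core and 3.61 in the periinfarct cortex at 24 h, then 5.11 and 4.58 at 3 d, with an SE of 0.71 and adjusted p of 0.000383, 0.00016, 3.83e-07 and 2.65e-05. These changes are not minima, since they use healthy signals that were not well above background. The filter on low signal admits a probe through any 1 group, which for Scn7a may be an ischemic one. All 4 calls stood without the filter. The lowest array at 3 d, at 2.94, was the library labelled periinfarct of pool 11, and without pool 11 the periinfarct change was 5.48. Sham cortex read 1.89, 2.85, 2.53 and 0.85 at 24 h and from 0.79 to 4.20 at 3 d, and 1 of these 8 arrays was well above background. With normexp background correction, here with an offset of 50 added to every signal, the log2 changes shrank to 0.40, 0.45, 0.92 and 0.89, none passed the 2-fold minimum, and the adjusted p in the core at 24 h was 0.0808.

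Scn11a, which encodes a persistent-current channel of pain-sensing neurons, rose at 24 h. Scn11a read 3.56, 3.61, 3.57 and 3.41 on the healthy arrays, 4.08, 4.63, 5.08 and 4.75 in the core at 24 h and 4.90, 5.06, 4.70 and 5.08 in the periinfarct cortex at 24 h. At 3 d Scn11a read 2.31, 2.75, 3.53 and 3.57 in the core and 4.06, 3.96, 3.80 and 4.05 in the periinfarct cortex. Every 24 h array of both regions lay above every healthy array, and in the core at 3 d the probe was well above background on 2 of 4 arrays, as in sham cortex at 3 d. The log2 change was 1.10 in the core and 1.40 in the periinfarct cortex at 24 h (SE 0.27, adjusted p = 0.00267 and 0.000149). At 3 d it was -0.50 and 0.43 (adjusted p = 0.14 and 0.317). The core call at 24 h was lost without pool 3, at 0.95, and against sham cortex, at 0.96. Normexp lowered the changes of Scn11a to 0.23 and 0.28.

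Of the main sodium channel pores of brain, those examined here went the other way or stayed under the limits. Scn2a1, left out by the name rule, was not examined. Scn1a carries much of the sodium current of fast-spiking interneurons. Scn1a read 11.52, 11.27, 11.14 and 11.53 on the healthy arrays, 10.10, 10.10, 9.47 and 10.15 in the core at 24 h and 10.06, 9.98, 9.84 and 9.52 in the periinfarct cortex at 24 h. At 3 d Scn1a read 8.85, 9.46, 10.80 and 9.42 in the core and 10.03, 9.29, 11.09 and 10.48 in the periinfarct cortex. All ischemic arrays lay below all healthy arrays, the closest being the library labelled periinfarct of pool 11 at 11.09. Scn1a fell, with log2 changes of -1.41 in the core and -1.52 in the periinfarct cortex at 24 h, and of -1.73 and -1.14 at 3 d (SE 0.27, adjusted p = 0.000211, 5.94e-05, 3.02e-06 and 0.00357). The periinfarct call at 3 d was lost without pool 10 of that group (adjusted p = 0.052) and against sham cortex, where the change was -0.94. Scn8a, the pore of mature axon initial segments and nodes, fell in the core at 3 d. Scn8a read 10.15, 9.52, 9.44 and 10.02 on the healthy arrays, 9.48, 9.68, 8.92 and 9.20 in the core at 24 h and 9.47, 9.67, 8.96 and 8.11 in the periinfarct cortex at 24 h. At 3 d Scn8a read 7.65, 8.22, 9.45 and 8.85 in the core and 9.21, 9.16, 9.87 and 9.19 in the periinfarct cortex. At 3 d pool 11 gave the highest value in both regions, and its core array just reached the healthy range. The log2 change of Scn8a in the core at 3 d was -1.24 (SE 0.29, adjusted p = 0.000527), and -1.54 without pool 11. Leaving out pool 9 instead gave -0.94, under the 2-fold minimum. The other 3 changes were -0.46 and -0.73 at 24 h and -0.43 in the periinfarct cortex at 3 d. Scn3a, a pore more abundant before birth, was not called, with changes from -0.76 to 0.24.

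Among the sodium channel beta subunits, Scn2b and Scn3b fell in some of the ischemic groups. Scn3b read 14.10, 14.28, 13.95 and 14.09 on the healthy arrays, 13.55, 13.68, 13.42 and 13.30 in the core at 24 h and 13.59, 13.97, 12.46 and 12.36 in the periinfarct cortex at 24 h. At 3 d Scn3b read 12.12, 12.09, 13.06 and 12.49 in the core and 13.43, 13.11, 13.90 and 12.99 in the periinfarct cortex. One periinfarct array of 24 h, of pool 2, touched the healthy range, and all other ischemic arrays lay below it. Scn3b fell by 1.01 in the periinfarct cortex at 24 h (adjusted p = 0.000707) and fell by 1.67 in the core at 3 d (adjusted p = 2.83e-07), with changes of -0.62 and -0.75 in the other groups. Its call at 24 h was lost without periinfarct pool 3 or 4 or healthy pool 18, at -0.80, -0.77 and -0.95. Scn2b read 5.51, 4.43, 4.15 and 5.28 on the healthy arrays, 4.81, 4.33, 3.83 and 4.25 in the core at 24 h and 4.35, 3.82, 3.96 and 2.36 in the periinfarct cortex at 24 h. At 3 d Scn2b read 3.79, 3.68, 4.89 and 3.89 in the core and 4.56, 4.23, 5.04 and 4.38 in the periinfarct cortex. Here every group overlapped with the healthy arrays. The call of Scn2b in the periinfarct cortex at 24 h, a change of -1.22 (SE 0.31, adjusted p = 0.00216), rested on pool 4 at 2.36, since the change without it was -0.80. Scn4b, a beta subunit linked to the resurgent current of the pore, was not called by its brighter probe, with changes from -0.89 to -0.49. A dimmer probe of Scn4b was called in the periinfarct cortex at 24 h (-1.07, adjusted p = 0.0275) and in the core at 3 d (-1.11, adjusted p = 0.0164).

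None of the 7 calcium channel pores was called at 24 h in either region, and 3 of them fell in the core at 3 d. Cacna1b is the N-type pore of presynaptic terminals, and Cacna1g and Cacna1i are low-voltage T-type pores of bursting neurons. Cacna1b read 12.32, 12.52, 12.46 and 12.71 on the healthy arrays, 12.18, 12.03, 12.04 and 11.94 in the core at 24 h and 12.15, 12.22, 12.01 and 11.63 in the periinfarct cortex at 24 h. At 3 d Cacna1b read 10.74, 11.08, 11.69 and 11.56 in the core and 11.80, 11.76, 12.44 and 11.91 in the periinfarct cortex. All 24 h arrays and all core arrays of 3 d lay below the healthy ones, and the library labelled periinfarct of pool 11 lay within them. Cacna1b fell by 1.24 in the core at 3 d (SE 0.17, adjusted p = 2.02e-07), against -0.45, -0.50 and -0.53 in the 24 h core, the 24 h periinfarct and the 3 d periinfarct cortex. Cacna1g read 7.89, 7.94, 7.84 and 8.42 on the healthy arrays, 6.81, 7.93, 7.38 and 8.16 in the core at 24 h and 7.13, 7.59, 6.95 and 7.01 in the periinfarct cortex at 24 h. At 3 d Cacna1g read 5.94, 6.52, 7.68 and 7.22 in the core and 7.53, 7.73, 7.82 and 7.46 in the periinfarct cortex. Its 24 h core arrays overlapped with the healthy arrays and the other 3 groups did not. Cacna1g fell by 1.18 in the core at 3 d (SE 0.25, adjusted p = 0.000199), and without pool 9 the change was -0.88. Cacna1i read 4.97, 4.69, 4.78 and 5.05 on the healthy arrays, 3.99, 4.35, 4.23 and 4.11 in the core at 24 h and 4.17, 3.53, 4.24 and 4.07 in the periinfarct cortex at 24 h. At 3 d Cacna1i read 3.69, 3.25, 4.50 and 3.25 in the core and 3.95, 4.03, 4.61 and 3.93 in the periinfarct cortex. Every ischemic array lay below the healthy ones on this dim probe. Cacna1i fell by 1.20 in the core at 3 d (SE 0.19, adjusted p = 2.98e-06), with -0.70, -0.87 and -0.74 in the other groups. Against sham cortex the changes of Cacna1g and Cacna1i in the core at 3 d were -0.91 and -0.86, under the 2-fold minimum. The L-type pores Cacna1c and Cacna1d, which feed calcium signals to the nucleus, lay at 0.05 and 0.40 in the core at 24 h and at -0.68 and -0.89 in the core at 3 d. The R-type pore Cacna1e gave -0.86 and the T-type pore Cacna1h -0.69 in the core at 3 d, uncalled. A dimmer probe of Cacna1d was called there (-1.13, adjusted p = 0.000124). Without pool 11, Cacna1d and Cacna1e were called in the core at 3 d as well, at -1.07 and -1.02.

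Both alpha2delta subunits fell in the core at 3 d, and Cacna2d3 fell already at 24 h. Cacna2d1 is the target of gabapentin, and Cacna2d3 is a related subunit of presynaptic terminals. Cacna2d3 read 10.33, 10.39, 10.66 and 10.68 on the healthy arrays, 8.59, 8.98, 9.56 and 9.72 in the core at 24 h and 8.47, 8.92, 8.86 and 8.85 in the periinfarct cortex at 24 h. At 3 d Cacna2d3 read 8.29, 9.08, 10.09 and 8.66 in the core and 9.21, 9.16, 9.84 and 9.67 in the periinfarct cortex. The ischemic arrays all lay below the healthy ones. Cacna2d3 fell, with changes of -1.30 in the core and -1.74 in the periinfarct cortex at 24 h and of -1.49 in the core at 3 d (SE 0.39, adjusted p = 0.0119, 0.000701 and 0.00201). In the periinfarct cortex at 3 d its change of -1.05 missed the limit (adjusted p = 0.0625), and without pool 11 it was -1.17 (adjusted p = 0.0311). The mean of sham cortex at both times lay -0.77 from healthy cortex for this gene (adjusted p = 0.474 in limma). Against sham cortex of the same time the changes at 24 h were -0.19 and -0.63, uncalled. Without pool 1 the change in the core at 24 h was -1.10 (adjusted p = 0.0547). Cacna2d1 read 14.55, 14.58, 14.59 and 14.60 on the healthy arrays, 13.77, 13.90, 13.75 and 13.98 in the core at 24 h and 13.86, 14.08, 13.63 and 13.24 in the periinfarct cortex at 24 h. At 3 d Cacna2d1 read 12.70, 13.22, 13.91 and 13.63 in the core and 13.87, 13.85, 14.47 and 13.90 in the periinfarct cortex. Ischemic and healthy arrays did not overlap, with the library labelled periinfarct of pool 11 closest at 14.47. Cacna2d1 fell by 1.22 in the core at 3 d (SE 0.17, adjusted p = 3.15e-07), and the change was -0.99 without pool 9. Its changes of -0.73, -0.88 and -0.56 in the 24 h core, the 24 h periinfarct and the 3 d periinfarct cortex had adjusted p of 0.00132, 0.000108 and 0.0194 but stayed under the 2-fold minimum.

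Of the 4 calcium channel beta subunits, cytoplasmic partners that traffic the pore, Cacnb3 fell in 3 of the 4 groups. Cacnb3 read 14.55, 14.60, 14.59 and 14.76 on the healthy arrays, 13.62, 13.63, 13.35 and 13.44 in the core at 24 h and 13.78, 13.95, 13.32 and 13.15 in the periinfarct cortex at 24 h. At 3 d Cacnb3 read 12.97, 12.78, 13.86 and 13.16 in the core and 13.98, 13.65, 14.45 and 13.81 in the periinfarct cortex. No ischemic array reached the healthy range. Cacnb3 changed by -1.12 in the core and -1.08 in the periinfarct cortex at 24 h and by -1.43 in the core at 3 d (SE 0.17, adjusted p = 8.3e-06, 1.19e-05 and 2.64e-08). In the periinfarct cortex at 3 d the change of -0.66 was under the 2-fold minimum, as were both changes at 24 h against sham cortex, at -0.81 and -0.77, and with scaling to the 75th percentile, at -0.93 and -0.97. Without pool 4 the periinfarct change at 24 h was -0.94. Cacnb4, whose loss causes seizures and ataxia in mice, and Cacnb1, the subunit known from muscle, fell in the core at 3 d. Cacnb4 read 7.48, 7.07, 7.03 and 7.05 on the healthy arrays, 7.22, 7.30, 7.01 and 7.23 in the core at 24 h and 7.13, 6.79, 6.36 and 6.94 in the periinfarct cortex at 24 h. At 3 d Cacnb4 read 5.45, 5.55, 6.83 and 5.58 in the core and 6.67, 5.78, 7.61 and 6.63 in the periinfarct cortex. The 24 h arrays overlapped with the healthy ones and the 3 d core arrays lay below them. Pool 11 was the highest of its group in both regions. Cacnb4 fell by 1.31 in the core at 3 d (SE 0.25, adjusted p = 4.55e-05), against a change of 0.03 in the core at 24 h. Cacnb1 read 10.97, 11.05, 10.89 and 10.90 on the healthy arrays, 10.94, 11.06, 11.22 and 11.07 in the core at 24 h and 11.11, 11.24, 10.93 and 10.94 in the periinfarct cortex at 24 h. At 3 d Cacnb1 read 9.47, 9.58, 10.42 and 10.03 in the core and 10.52, 10.43, 11.02 and 10.48 in the periinfarct cortex. Its 24 h arrays also overlapped with the healthy arrays, and the 3 d core arrays lay below all of them. Cacnb1 fell by 1.08 in the core at 3 d (SE 0.14, adjusted p = 1.08e-07), and the change was -0.94 without pool 9 and -0.98 without pool 10. Cacnb2 was not called by its brighter probe, with changes from -0.74 to 0.19. A dimmer probe of Cacnb2 was called in the periinfarct cortex at 24 h (-1.04) and in the core at 3 d (-1.19), and for the 24 h group the probes differ in sign.

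Among the gamma subunits, the AMPA receptor escorts Cacng3 and Cacng2 fell. Cacng3 read 9.11, 9.31, 9.41 and 9.32 on the healthy arrays, 7.77, 7.49, 7.89 and 8.03 in the core at 24 h and 7.81, 8.12, 7.46 and 7.66 in the periinfarct cortex at 24 h. At 3 d Cacng3 read 7.17, 7.04, 8.63 and 7.05 in the core and 8.28, 8.05, 8.81 and 8.15 in the periinfarct cortex. All ischemic arrays lay below the healthy ones, and at 3 d pool 11 was the highest in both regions. Cacng3 fell, with -1.49 in the core and -1.52 in the periinfarct cortex at 24 h and -1.81 in the core at 3 d (SE 0.30, adjusted p = 0.000346, 0.000178 and 6.7e-06). In the periinfarct cortex at 3 d the change was -0.96 (adjusted p = 0.0255), and -1.13 without pool 11, which passed the limits. Against sham cortex the 24 h changes were -0.93 and -0.96, under the 2-fold minimum. Cacng2 read 10.35, 10.53, 10.80 and 10.64 on the healthy arrays, 9.82, 10.11, 9.73 and 10.30 in the core at 24 h and 10.42, 9.95, 9.80 and 10.08 in the periinfarct cortex at 24 h. At 3 d Cacng2 read 8.53, 8.76, 9.97 and 8.36 in the core and 9.58, 9.28, 9.90 and 9.54 in the periinfarct cortex. At 24 h only 1 ischemic array, a periinfarct one, reached the healthy range, and at 3 d none did. Cacng2, also known as stargazin, fell in the core (-1.67) and in the periinfarct cortex (-1.004) at 3 d (SE 0.30, adjusted p = 1.63e-05 and 0.0173). The periinfarct call was lost under several alternatives, among them the deposited normalized table, at -0.99, the fits without healthy pool 19 or 20 or periinfarct pool 10 or 12, and against sham cortex, at -0.73. Cacng7 and Cacng8 were not called, with -0.98 and -0.85 in the core at 3 d. Without pool 11 they were, at -1.22 and -1.002, and so was Scn2b, at -1.06.

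The pacemaker channel gene Hcn2 fell at 24 h in both regions. Hcn2 read 6.26, 6.00, 6.46 and 6.60 on the healthy arrays, 5.19, 5.41, 4.42 and 5.25 in the core at 24 h and 4.84, 4.53, 5.58 and 4.12 in the periinfarct cortex at 24 h. At 3 d Hcn2 read 5.13, 5.38, 6.01 and 4.15 in the core and 5.81, 5.74, 5.81 and 6.01 in the periinfarct cortex. The 24 h arrays all lay below the healthy ones, and those of 3 d overlapped with them. Hcn2 fell, with changes of -1.26 in the core and -1.56 in the periinfarct cortex at 24 h and of -1.16 in the core at 3 d (SE 0.35, adjusted p = 0.00637, 0.000637 and 0.00601), with -0.49 in the periinfarct cortex at 3 d (adjusted p = 0.386). The sham array of pool 5 at 24 h was the lowest of its group for Hcn2 (4.77), Cacng3 (8.05) and Cacna2d3 (8.45). Against sham cortex these 3 changes of Hcn2 were -0.67, -0.97 and -0.97, all under the 2-fold minimum, and the core call at 3 d was also lost without pool 12, at -0.82. Hcn3 was not called, with changes from -0.71 to -0.17.

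**Figure D2:**
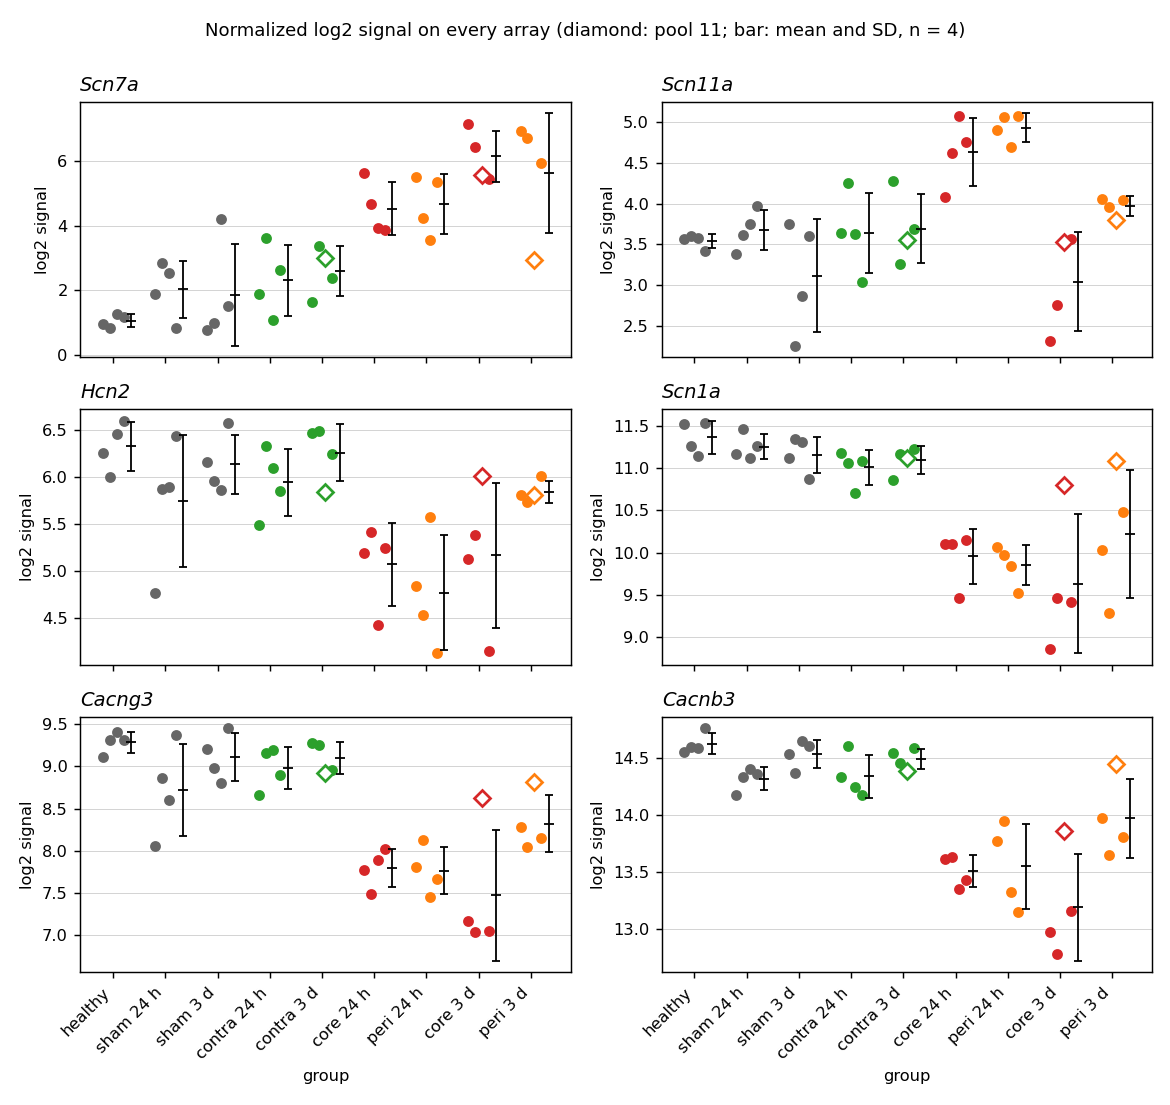
Normalized log2 signal of 6 channel genes on every array of 9 groups (points; n = 4 arrays per group), with the group mean and SD beside them; diamonds are pool 11. Healthy and sham arrays are grey, contralateral green, core red and periinfarct orange. Scn7a rises in every ischemic group, Scn11a at 24 h, and the 4 others have lower means in ischemic than in healthy cortex, with pool 11 the highest core array of 3 d in all 4 and the highest periinfarct one in 3.

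Compared with the contralateral cortex of the same rats, the same fit called 3 and 9 genes at 24 h and 19 and 1 at 3 d, in the core and in the periinfarct cortex. In the core at 24 h 2 genes fell, Scn1a (-1.05) and Cacng3 (-1.18), and Scn7a rose (2.22), against 3.06% and 5.25% of all probes. At 24 h in the periinfarct cortex 7 genes fell, among them Scn2b, Scn3b, Cacng3, Hcn2, Scn1a and Scn8a, with changes from -1.34 to -1.09, and Scn7a and Scn11a rose (2.36 and 1.30), against 6.32% and 7%. In the core at 3 d 18 genes fell and Scn7a rose by 3.56, against 11.3% and 12%, with Scn3b at -1.62, Cacng3 at -1.63 and Scn1a at -1.46. At 3 d the periinfarct cortex had none that fell, where 0.288% of all probes did, and Scn7a rose by 3.04, where 5.14% did. With the pool as a block the Scn7a call was lost, as it was in a fit of those 8 arrays without the block. Scn7a was well above background on 1 contralateral array of 24 h and 2 of 3 d. The core count at 24 h was 1 gene without contralateral pool 1, and that at 3 d was 11 without core pool 9. Without pool 11, 22 genes fell and 1 rose in the core at 3 d (15.7% and 13.9% of all probes), and 2 fell and 1 rose in the periinfarct cortex (1.71% and 7.77%).

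The control groups showed no called channel gene. The mean of sham cortex at 24 h and 3 d, against healthy cortex, gave 0 of 30 genes in limma (0% of all probes). Of the 30, 3 genes, Cacna1i and Cacna2d3 among them, had an unadjusted p below 0.05. All adjusted p were at or above 0.474. Neither sham time was tested alone against healthy cortex. The mean of Cacna2d3 was 9.40 in sham cortex at 24 h and 10.09 at 3 d, against 10.52 in healthy cortex. Contralateral against sham contralateral cortex gave 0 genes at 24 h (0.00327% of all probes) and 0 at 3 d (0%), and at both times 0 genes had an unadjusted p below 0.05.

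No channel gene was called between the core and the periinfarct cortex, though at 3 d most of them lay lower in the core. At 24 h 0 of 30 genes were called in limma (0.131% of all probes), 2 had an unadjusted p below 0.05, and the median difference was 0.12. At 3 d 0 were called (4.05% of all probes), but 29 of 30 differences were below 0, with a median of -0.66 against -0.08 over all probes. Without pool 11 these medians were -0.78 and -0.05. At any fold, 13 genes lay lower in the core with an adjusted p below 0.05, where 8.16% of all probes did, among them Scn3b (-0.92, 95% interval -1.38 to -0.45), Cacna1d (-0.89, -1.40 to -0.37) and Cacnb4 (-0.82, -1.33 to -0.32). Without pool 11 as a whole, 4 genes passed the 2-fold minimum too (1.88% of all probes), namely Cacna1d, Cacna1g, Cacng3 and Scn11a, and without the core array of pool 11 alone 9 did. Single arrays left out also gave 4 genes without core pool 12, 2 without periinfarct pool 10 and 1 without periinfarct pool 12.

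From 24 h to 3 d 10 genes fell in the core, where 5.49% of all probes did. In the periinfarct cortex 0 passed both limits downward in limma, a count near the background of 2.34% of all probes, while 12 genes had an unadjusted p below 0.05 in either direction and 5 lay lower at any fold with an adjusted p below 0.05 (5.73% of all probes). In the core Scn11a fell by 1.59 (adjusted p = 2.28e-05), having lain above all healthy arrays at 24 h. Cacnb4, Cacna1d, Cacnb1, Cacng8, Cacna1e, Cacng2 and Scn3b fell too, with changes from -1.34 to -1.05 and adjusted p from 3.78e-08 to 0.0046. Scn1a, Cacng3 and Cacnb3, low at 24 h, changed by -0.33, -0.32 and -0.32 and were not called. Hcn2 was the only gene called in the periinfarct cortex, with a rise of 1.07 (SE 0.35, adjusted p = 0.0323), where 3.41% of all probes rose. Scn11a changed there by -0.97, under the 2-fold minimum (adjusted p = 0.0134). Tested directly, the difference of core minus periinfarct cortex was lower at 3 d than at 24 h for 4 genes (3.14% of all probes): Scn3b (-1.31, adjusted p = 0.0173), Cacnb4 (-1.21, 0.0319), Cacna1g (-1.19, 0.0355) and Cacna1d (-1.12, 0.0446). For all 4 the mean of the core lay above that of the periinfarct cortex at 24 h, by 0.39, 0.39, 0.40 and 0.24 in this order and uncalled, and below it at 3 d. The count of 4 was 0 with the pool as a block and 0 in a fit of these 16 arrays without it. It was 0 without core pool 9 or 10 of 3 d, without periinfarct pool 4 of 24 h or without periinfarct pool 11, 1 without core pool 2 or 4 or periinfarct pool 3 of 24 h, and 13 without core pool 11. Without all of pool 11 it was 8 (5.83% of all probes). From 24 h to 3 d, 13 genes then fell in the core (8.18%) and 1 rose (10.5%). The core lost 5 without pool 9. The rise of Hcn2 in the periinfarct cortex was not called without pool 2 or 4 of 24 h or pool 12 of 3 d, when 0 genes were, and 3 genes were called without pool 3 of 24 h and 2 without pool 9.

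**Figure D3:**
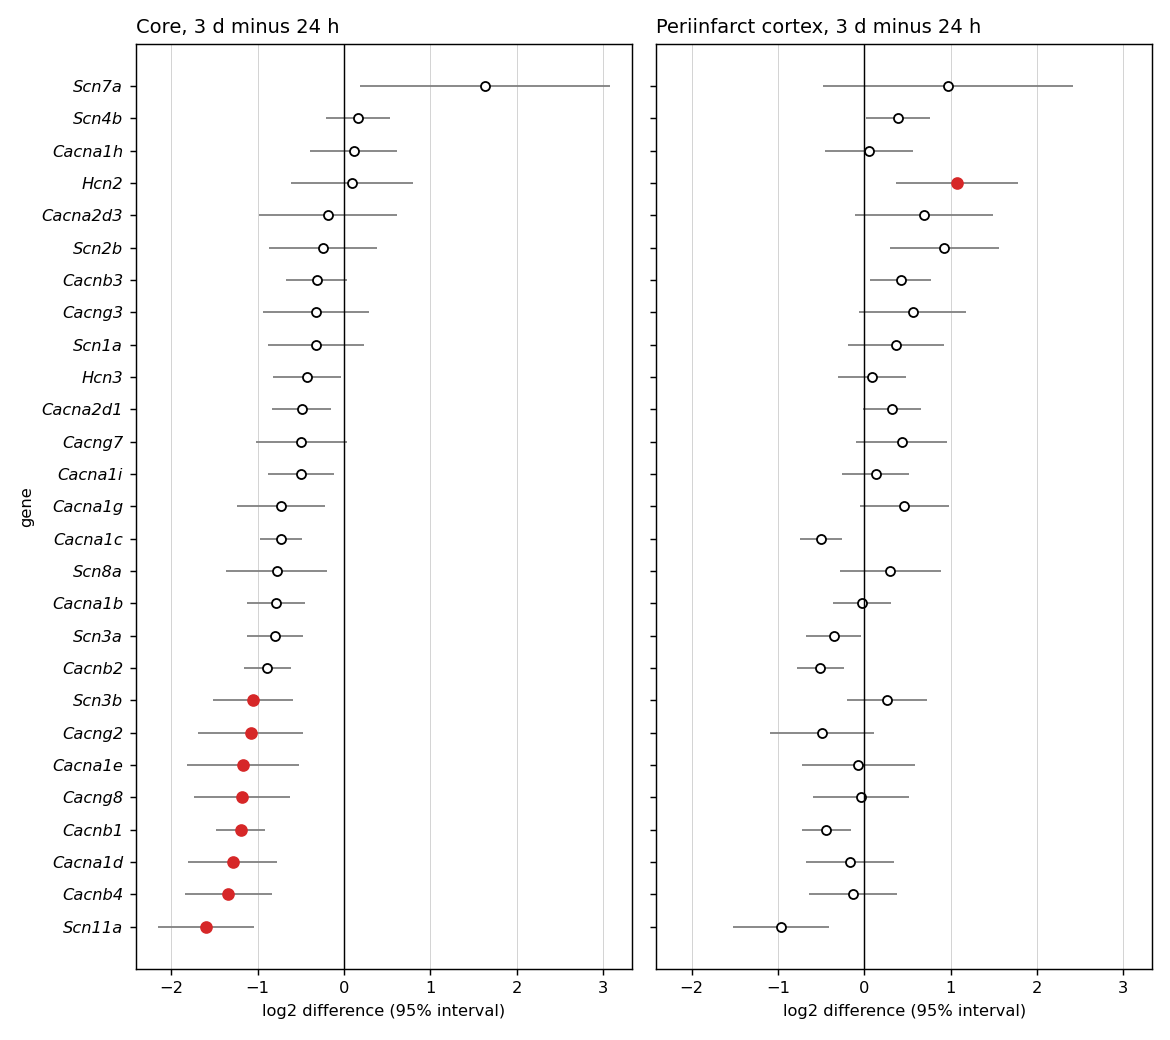
Difference between 3 d and 24 h in normalized log2 signal of 27 channel genes in the core (left) and the periinfarct cortex (right), with 95% intervals; n = 4 arrays per group, genes in the order of the core. Filled red points passed the limits: 8 genes below 0 in the core and Hcn2 above 0 in the periinfarct cortex.

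The partners of these channels, a list of 20 genes of the axon initial segment, the release site and channel regulation, of which 17 were tested, fell in part. In the core and periinfarct cortex 4 and 7 of 17 fell at 24 h (5.24% and 7.56% of all probes). At 3 d 13 and 1 fell (12% and 1.01%), and none rose at either time. The median log2 change was -0.59 and -0.93 at 24 h and -1.26 and -0.57 at 3 d. Fgf14, which binds the tails of sodium channels, fell in the periinfarct cortex at 24 h (-1.42) and in the core at 3 d (-2.02). Camk2a, the calcium-dependent kinase of synapses, changed by -1.23, -1.35 and -1.84 in the 24 h core, the 24 h periinfarct cortex and the 3 d core, and Stx1a, a release protein that binds calcium channels, by -1.06, -1.59 and -1.48, all called. The 1 gene that fell in the periinfarct cortex at 3 d was Rims1 (-1.02), a scaffold of the release site. Among 5 upstream genes, Rest, which encodes the repressor of the RE1 element, rose in all 4 groups, by 1.21 and 1.19 at 24 h and 1.93 and 1.11 at 3 d (adjusted p = 0.00503, 0.00411, 8.05e-06 and 0.0164). Its cofactor gene Rcor2 fell in the periinfarct cortex at 24 h (-1.03) and in the core at 3 d (-1.10), and Rcor1, Sin3a and Hdac2 were not called.

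In bulk tissue, fewer neurons and less RNA per neuron cannot be told apart. Of 14 neuron markers, 1 and 4 fell in the core and periinfarct cortex at 24 h and 7 and 2 at 3 d, with medians of -0.50, -0.87, -0.97 and -0.50. All 14 stayed well above background on every array. Their summed signal, as log2, ran from 16.76 to 16.83 in healthy cortex, 15.95 to 16.29 and 15.43 to 15.90 in the core and periinfarct cortex at 24 h, and 15.03 to 16.24 and 15.55 to 16.41 at 3 d. Snap25, a vesicle fusion protein, fell in the core at 3 d (-1.74), as did Nefm, a neurofilament (-1.64), while the other 7 markers were not called there and ran from -0.91 to -0.64. Of 10 microglia and macrophage markers, 5 and 5 rose at 24 h and 10 and 9 at 3 d, and their summed signal went from 13.56 to 13.86 in healthy cortex to 16.45 to 17.23 in the core at 3 d. Of 9 astrocyte markers, 1 rose and 4 fell in both regions at 24 h, 1 rose and 2 fell in the core at 3 d, and 1 rose in the periinfarct cortex at 3 d, with Gfap up by 2.88 to 3.51. Their summed signal was 15.36 to 15.63 in healthy cortex, 14.44 to 14.84 in the core at 24 h and 14.83 to 15.35 in the core at 3 d. Of 7 mural cell and fibroblast markers, 4 fell in the core at 24 h, 6 rose in the core at 3 d and 2 rose in the periinfarct cortex at 3 d, with sums of 12.97 to 13.23 in healthy cortex and 13.90 to 15.45 in the core at 3 d. Of 4 neutrophil markers 2 or 3 rose in each ischemic group, 1 or 2 of 8 endothelial ones rose, 2 of 7 oligodendrocyte ones fell in the periinfarct cortex at 24 h, and 2 of 4 precursor ones fell in the core at 24 h. Beside these counts, 6.05% and 6.78% of all probes rose and 5.24% and 7.56% fell in the core and periinfarct cortex at 24 h. At 3 d 12.2% and 5.34% rose and 12% and 1.01% fell. The part of the listed cell types in the channel results, the rise of Scn7a included, was not tested.

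**Figure D4:**
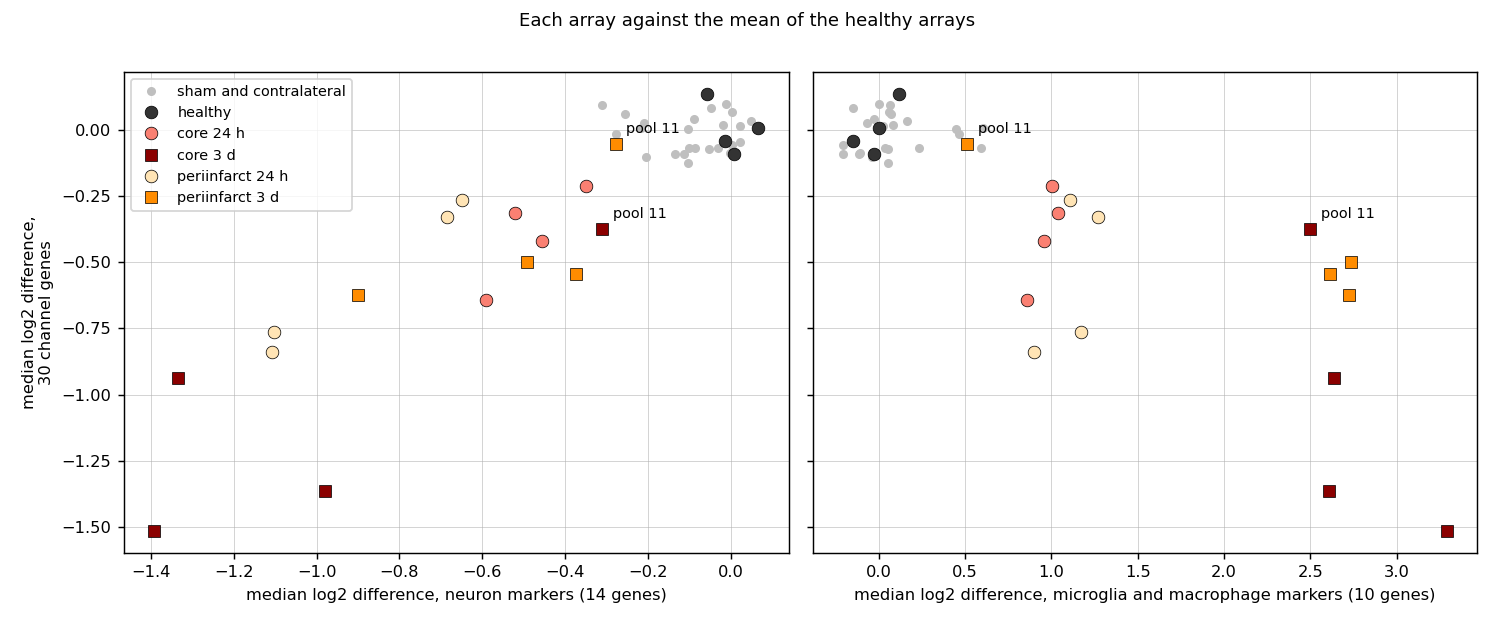
Each point is 1 of the 44 arrays, as the median log2 difference from the mean of the healthy arrays over the 30 channel genes (vertical) against the same over 14 neuron markers (left) and 10 microglia and macrophage markers (right). The library labelled periinfarct 3 d of pool 11 lies among the sham and contralateral arrays, and the 3 other core arrays of 3 d lie lowest, at -1.51 to -0.94.

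The arrays lay on 11 slides. Slide 10 held only contralateral arrays, of pools 1 and 4 at 24 h and of pools 10 and 12 at 3 d, and the other slides mixed ischemic with control arrays or both. In comparisons with the contralateral cortex, side and slide therefore cannot be fully told apart. For each of the 4 ischemic groups 1 slide held an array of it beside a healthy one. Within such a slide the channel genes differed from the healthy array by a median of -0.42 in the core and -0.76 in the periinfarct cortex at 24 h, and of -0.49 and -0.83 at 3 d, the core array of 3 d being that of pool 11. Scn1a differed by -1.43 and -1.62 at 24 h and by -0.73 and -2.25 at 3 d within slides. With the slide as a fixed block the counts against healthy cortex were 6, 9, 18 and 3 genes, in the order core and periinfarct cortex at 24 h and at 3 d. Against the contralateral cortex they were 1, 2, 17 and 0. The calls against healthy cortex lost with this block were those of Cacna2d3 (-0.87, adjusted p = 0.156) and Hcn2 (-0.98, adjusted p = 0.103) in the core at 24 h, of Cacnb3 and Scn3b in the periinfarct cortex at 24 h, of Cacna1g in the core at 3 d and of Cacng2 in the periinfarct cortex at 3 d. Normexp ended those of Cacna1g, Cacna1i, Cacnb1, Cacnb4 and Hcn2 in the core at 3 d, of Hcn2 in both regions and Scn2b in the periinfarct cortex at 24 h, and of Cacng2 in the periinfarct cortex at 3 d, beside the rises given above.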

How the data were processed

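Cortical RNA, pooled from 3 rats per array, was hybridised in 1 colour (Cy3) to Agilent rat arrays with 45018 spots. Per the labels, the authors extracted the signals with Agilent Feature Extraction 10.7.3.1, and the deposited signal intensity of each spot is background-subtracted and not normalized between arrays. The deposited flags of each spot, scored 0 or 1 per the file headers, mark other properties such as outliers and signal above background. The authors' normalized table holds log2 values of 20395 probes, 20 of them controls, which the study thresholded at 1, quantile normalized and filtered, and it was used here for gene symbols and as an alternative.

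Here, intensities of the 43379 non-control spots were set to at least 1 and log2 transformed, and outlier spots were removed. The remaining spots were quantile normalized, and spots of a probe were averaged. Of 41012 probes, 30538 passed a filter like the one the study describes: above the 20th percentile and significantly above background on 75% of the arrays of a group, with a coefficient of variation over 2.5%. A gene was represented by the probe of the deposited table with the highest mean. All 44 arrays were fitted together with limma 3.58.1 in R 4.3.3, with 1 mean per group and no block, and p-values were adjusted by Benjamini-Hochberg over all probes per comparison. By rule, values on every array are given for genes called (adjusted p below 0.05, at least 2-fold) in at least 1 of the 4 comparisons with healthy cortex, and genes of the other lists are given values only where called. A few of the 30 genes enter the counts and medians but are not reported by name here. The fit was tested on simulated data. The number of arrays limits the precision. The p-values measure the spread between pools of rats, estimated once per probe over all 11 groups. Where a group spreads more than the others, its SE and p-values come out too small. Cacna2d1, for example, had an SD of 0.53 in the core at 3 d. Its SD was 0.02 in healthy cortex and 0.05 in sham cortex at 3 d. Pool numbers in the labels mark the same rats, which pairs core, periinfarct and contralateral arrays. Same-pool deviations correlated at a mean of 0.15 between core and periinfarct cortex at 24 h and 0.00 at 3 d, against -0.05 and 0.00 between different pools. Figures were drawn with matplotlib 3.10.9. The genes, lists, tests and comparisons were chosen with earlier results of these data known. Alternatives tried were another scaling, background correction, filters, the deposited table, slide and pool blocks, sham controls, no fold minimum, averages over a gene's probes and each array left out.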

Additional observations from a re-analysis of the deposited data

Results flagged for a closer look

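Over 17 named genes and 5 groups, 85 sets of 4 arrays were examined for a single array far from the other 3 (by Dixon's gap ratio at the 95% level), and 10 had one. Chance alone picks about 1 in 20 sets, and the genes are measured on the same arrays. In 6 of the 10 the array was of pool 11. In the library labelled periinfarct 3 d of pool 11, Cacna1i read 4.61 (others 3.93 to 4.03), Cacna2d1 14.47 (13.85 to 13.90), Cacnb1 11.02 (10.43 to 10.52) and Scn8a 9.87 (9.16 to 9.21). In the library labelled core 3 d of pool 11, Cacnb4 read 6.83 (5.45 to 5.58) and Cacng3 8.63 (7.04 to 7.17). The others were Scn1a at 9.47 in core 24 h pool 3 (10.10 to 10.15), Cacna2d3 at 8.47 in periinfarct 24 h pool 1 (8.85 to 8.92), Cacna1g at 8.42 in healthy pool 20 (7.84 to 7.94) and Cacnb4 at 7.48 in healthy pool 17 (7.03 to 7.07).

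Differences between times or regions passed the limits for these genes in tests of the difference itself. From 24 h to 3 d the core changed by -1.29 for Cacna1d, -1.17 for Cacna1e, -1.20 for Cacnb1, -1.34 for Cacnb4, -1.08 for Cacng2, -1.18 for Cacng8, -1.59 for Scn11a and -1.05 for Scn3b. The periinfarct cortex changed by 1.07 for Hcn2. The difference between core and periinfarct cortex changed from 24 h to 3 d by -1.12 for Cacna1d, -1.19 for Cacna1g, -1.21 for Cacnb4 and -1.31 for Scn3b.

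One probe that the deposited normalized table does not name, tied to Cacna1e by its accession alone, was called in the core at 3 d with a log2 change of -1.001 against healthy cortex.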

How the results depend on the processing

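No called change of a named gene turned its direction under any alternative run (7 values of uncalled ones, of Cacnb4 and Cacng2 at 24 h, did), and the counts for both sham and contralateral controls stayed at 0. Of the 68 changes of named genes against healthy cortex, 64 kept their side of the limits with 75th percentile scaling, 65 in the deposited table, 67 with slide as a random block and 61 as a fixed one, but 53 with normexp and 54 with sham controls, where 15 and 14 calls were lost, and 52 without a fold minimum, where 16 were gained. Scaling to the 75th percentile moved the median of all probes by 0.27 and 0.23 in the periinfarct cortex at 24 h (against healthy and contralateral cortex), -0.13 for core against periinfarct at 24 h, -0.18 for periinfarct 3 d against 24 h and 0.18 for the change of the regional difference with time. Probes rising and falling were then 2976 and 971 in place of 2139 and 1930, 9 and 50 in place of 14 and 26, 593 and 1037 in place of 1040 and 715, and 785 and 695 in place of 574 and 958 in the last 4 of these comparisons. Without a fold minimum the counts were 15, 18, 28 and 11 against healthy cortex (core and periinfarct at 24 h, then at 3 d), 9, 14 and 6 against contralateral cortex (24 h core, 24 h periinfarct, 3 d periinfarct), 13 for core against periinfarct at 3 d, 18 and 7 for 3 d against 24 h, and 8 for the change of the difference. With normexp the counts were 5, 6, 11 and 2 against healthy cortex, then 0, 4, 11 and 0 against contralateral cortex. They were 4 and 0 for 3 d against 24 h, and 1 for the change of the difference. Shares of all probes are not given for normexp, sham controls or blocks, so those counts show only how the calls moved. With sham controls 2, 7 and 1 were called in the 24 h core, the 24 h periinfarct and the 3 d periinfarct cortex. Slide as a fixed block gave 1 and 2 against contralateral cortex at 24 h, 0 in the periinfarct cortex at 3 d, 2 for periinfarct 3 d against 24 h and 0 for the change of the difference. The pool as a replicate block gave 0 in the periinfarct cortex at 3 d against contralateral cortex and 0 for the change of the difference, as did the fit of those arrays without the block (added after seeing the data), and it moved no other count by over 1.5 times. Leaving out pool 11, also added later, gave 3 in the periinfarct cortex at 3 d against contralateral cortex, 4 for core against periinfarct at 3 d and 8 for the change of the difference.

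With each array left out in turn, the counts against healthy cortex ran from 7 to 8 and 8 to 12 at 24 h (core, periinfarct) and 12 to 22 and 2 to 6 at 3 d. Against contralateral cortex they ran from 1 to 4, 6 to 10, 11 to 23 and 1 to 2 in the same order, with the lowest at 24 h without contralateral pool 1 for the core and without periinfarct pool 4. They ran from 0 to 9 for core against periinfarct at 3 d, 5 to 13 and 0 to 3 for 3 d against 24 h in core and periinfarct cortex, and 0 to 13 for the change of the difference. At 3 d the core counts were lowest without pool 9 and highest without pool 11. The periinfarct count at 3 d against healthy cortex was 2 without pool 10 and 6 without pool 11, and its time count was 0 without pool 2 or 4 of 24 h or pool 12 of 3 d, and 3 without 24 h pool 3. Probes near background, such as that of Scn7a, limit what is read from low signal.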
